A study of Mus musculus with 6 samples.

Results

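The genes described here are 9 genes that the ERK kinase pathway switches on and whose products then restrain or carry its signal: the phosphatase genes Dusp4, Dusp5 and Dusp6, the Sprouty genes Spry1, Spry2 and Spry4, the Sprouty-related gene Spred1, and the ETS transcription factor genes Etv4 and Etv5. They were taken by symbol from the authors' deposited table of knockout over control, and 9 of 9 were found among its 16701 genes. Polyadenylated RNA came from luminal epithelial cells of the mouse mammary gland, the cells that line the ducts and make milk. The control group holds 3 libraries from WT mice and the knockout group 3 libraries from mice labelled Ocln-/-, a knockout of the gene of occludin, a membrane protein of the tight junction, all at 7 weeks of age. No label gives the strain, the tissues in which the deletion acts or whether the libraries come from different mice. The p-values therefore rest on the spread among these libraries, which may in part be technical. The table gives 1 value per gene for the comparison, and values per library were not analysed here.

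ERK is the last kinase of a cascade that starts at growth factor receptors such as those for EGF and FGF and runs through Ras, Raf and MEK. Active ERK induces its own brakes: Dusp phosphatases strip the activating phosphates from ERK, and Sprouty and Spred proteins act further up, between receptor and Raf. In the mammary gland, EGF and FGF family signals are known to drive duct growth. The messages of these feedback genes are short-lived and are widely used as a readout of ERK output.

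Promoter windows from RefSeq on GRCm38.p6 were searched for 6 of the 9 genes, each cut to 250 bases before the start of transcription and 30 after it. The windows of Dusp5, Dusp6 and Spry2 are shown because they hold, in capitals, letters that match the binding motif of a factor through which growth factor signals are known to reach promoters. Dusp5 lies at chr19:53528895-53529174 on the plus strand and has 2 CArG boxes, the motif of the serum response factor, next to each other at 82 and 72 bases before the start. Dusp6 lies at chr10:99262981-99263260 on the plus strand and holds the octamer TCAATGGA of the repressor Capicua (Cic) on its reverse strand at 24 bases before the start and again from base 2 of the transcript. Spry2 lies at chr14:105896790-105897069 on the minus strand and has TCAATGAA on the reverse strand at 54 bases before the start. Each is written 5′ to 3′ along the gene.
Dusp5: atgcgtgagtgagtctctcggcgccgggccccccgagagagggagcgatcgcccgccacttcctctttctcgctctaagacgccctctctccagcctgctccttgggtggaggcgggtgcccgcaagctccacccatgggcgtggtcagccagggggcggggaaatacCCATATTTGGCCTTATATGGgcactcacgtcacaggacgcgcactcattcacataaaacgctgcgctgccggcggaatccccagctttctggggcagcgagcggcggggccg
Dusp6: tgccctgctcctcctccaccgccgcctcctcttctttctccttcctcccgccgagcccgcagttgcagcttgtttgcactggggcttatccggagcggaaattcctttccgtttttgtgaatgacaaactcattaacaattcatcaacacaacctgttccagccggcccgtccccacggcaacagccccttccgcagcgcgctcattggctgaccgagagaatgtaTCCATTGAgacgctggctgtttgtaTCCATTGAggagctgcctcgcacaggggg
Spry2: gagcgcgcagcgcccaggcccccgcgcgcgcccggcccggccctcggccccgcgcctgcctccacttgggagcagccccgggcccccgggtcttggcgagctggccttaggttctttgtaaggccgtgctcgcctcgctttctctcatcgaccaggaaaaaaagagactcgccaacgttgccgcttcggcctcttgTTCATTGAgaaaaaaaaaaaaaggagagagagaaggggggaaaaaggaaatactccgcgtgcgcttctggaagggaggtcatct

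Both strands were searched for 6 motifs, and overlaps between motifs were allowed. The Capicua octamer, searched as TGAATGAA, TGAATGGA, TCAATGAA and TCAATGGA, was found in 2 of the 6 genes and in 3.65 percent of all 32851 promoter windows. The CArG box was found in 1 of the 6 and in 1.56 percent of all windows. CCGGAA, 1 form of the ETS motif, was found in 0 of the 6 genes and in 14.2 percent of all windows. Other forms of the ETS motif were not searched, so their presence is not excluded. The cyclic AMP element TGACGTCA (1.74 percent of all windows), the AP-1 element TGANTCA (7.46 percent) and TATAAA (13.1 percent) were found in 0 of the 6 genes. These matches describe letters in a window, and the motifs were chosen with the sequences in view. The counts for the 6 genes are of genes, which have 7 windows, while the shares over all are of windows. G and C made up 57.1 to 72.9 percent of those 7 windows, against a median of 52.5 percent over all windows. The shares were not matched for this. Spred1, Spry1 and Etv5, the last with 2 windows, held none of the 6 motifs there. Dusp4, Spry4 and Etv4 were left out of the search, so whether their promoters hold these motifs is not shown.

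The targeted gene, Ocln, fell to 44.9 percent of the control level in the authors' deposited table (-1.15 ± 0.16 SE on the log2 scale, DESeq2 adjusted p = 4.36e-09). The direction matches the label, but with this much transcript still counted it does not show loss of occludin, and which exons were deleted and which gave the remaining reads was not analysed here. Markers of luminal cells stood above those of other cells. On the scale of mean normalized counts per kilobase of exon, the 5 luminal markers Krt8, Krt18, Krt19, Epcam and Cdh1 stood at 5564 to 58513, against 31.2 to 327 for 6 basal, 13.8 to 200 for 6 fibroblast, 21.8 to 212 for 5 endothelial and 3.29 to 219 for 6 macrophage markers. Of markers of T and NK cells, B cells and adipocytes, 6 of 14 are listed, at 9.80 to 497 on that scale and the others were not analysed here. The depth of each library is unknown.

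None of the 9 feedback genes passed in the knockout comparison. By the values in the authors' deposited table, 0 of 9 had a DESeq2 adjusted p under 0.05, where 1.08 percent of all listed genes had one (181 of 16701, with 0.808 percent higher and 0.275 percent lower), so a count of 0 among 9 genes is near that background. The lowest adjusted p of the 9 in the authors' deposited table was 0.478, for Dusp4, and the highest 0.992, for Spry1. At an unadjusted p under 0.05, where 9.07 percent of all listed genes stand (5.23 percent higher and 3.83 percent lower), 1 of the 9 was found, again Dusp4. The 9 log2 fold changes ran from -0.45 to 0.24, with 5 positive and 4 negative and a median of 0.02, beside a median of -0.01 over all listed genes, of which 48.8 percent were positive. The median size of the change, without its sign, was 0.11 for the 9 genes and 0.19 for all listed genes. By their own rule, which differs from the threshold used above, the authors called 0 of the 9, against 2.79 percent of all genes (466 of 16701).

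What the libraries could show is given by the intervals. The 95 percent intervals of the 9 genes, not adjusted for the number of genes, lay between 51.4 and 165 percent of the control level, so that a change of 1 on the log2 scale in either direction was outside each of them. An adjusted p under 0.05 went with an absolute Wald score of at least 3.46 in the authors' deposited table. At the SE of each gene, that score corresponds to a log2 fold change of 0.53 for Spred1, the most precise of the 9, and 1.16 for Etv5, the least precise, and it is below 1 for 8 of the 9 genes. Changes below these sizes would not have been called.

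**Figure D1:**
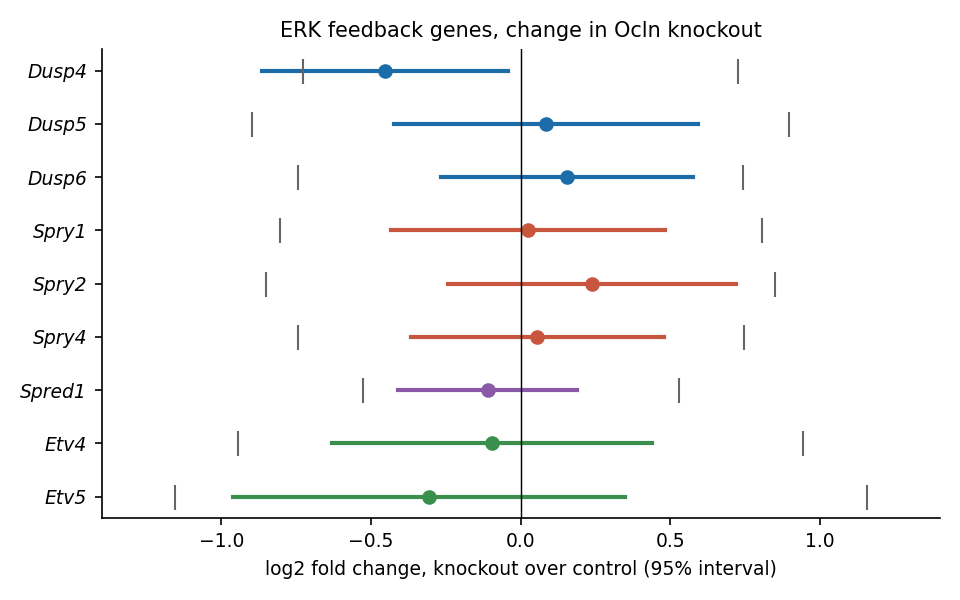
Log2 fold change of each of the 9 ERK feedback genes, knockout over control, from the authors' deposited table (x axis, log2 units, 3 libraries per genotype). Points are the deposited values, bars the 95 percent intervals, and grey ticks the size at which the gene would have reached an adjusted p under 0.05. Every point lies inside its ticks, and the bar of Dusp4 alone stays on one side of 0.

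Among the phosphatases, Dusp4 had the largest difference of the 9. Dusp4 is an inducible phosphatase of the nucleus that acts on ERK and other MAP kinases (chromosome 8, 34807297 to 34819894, plus strand, GRCm38). Its mean level over the 6 libraries in the authors' deposited table was 2764 normalized counts. In the authors' deposited table the knockout differed by -0.45 ± 0.21 on the log2 scale (SE, DESeq2 adjusted p = 0.478), or 73.0 percent of the control level with an interval of 54.9 to 97.2 percent. By unadjusted p, Dusp4 ranked 1081 among the 16701 genes, within the 3.83 percent of all genes that were lower in the knockout at an unadjusted p under 0.05. A fall to 60.4 percent of control would have passed at its SE.

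Dusp5, a phosphatase of the nucleus with ERK as its substrate (chromosome 19, 53529109 to 53542431, plus strand), had a mean level of 6892 normalized counts and a log2 change of 0.08 (SE 0.26, DESeq2 adjusted p = 0.971) in the authors' deposited table. That is 106 percent of control, with an interval of 74.6 to 151 percent. Dusp6, the ERK phosphatase of the cytoplasm (chromosome 10, 99263231 to 99267489, plus strand), had the highest level of the 9 genes, 14161 normalized counts in the authors' deposited table. Its log2 fold change was 0.15 ± 0.21 (SE, DESeq2 adjusted p = 0.931) in the authors' deposited table, or 111 percent of control, with an interval of 83.1 to 149 percent. The 3 phosphatase genes thus did not share a sign, and the intervals of Dusp5 and Dusp6 span 0 on the log2 scale while that of Dusp4 reaches to -0.04. Whether Dusp4 differed from the other two was not tested.

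The Sprouty genes, whose products block signalling between growth factor receptors and Raf, all had positive values within their error. Spry2 (chromosome 14, 105891947 to 105896819, minus strand) had a mean level of 2111 normalized counts and a log2 change of 0.24 (SE 0.25, DESeq2 adjusted p = 0.878) in the authors' deposited table, the most positive of the 9. Its interval of 84.5 to 165 percent of control holds values on both sides of the control level. Spry1 (chromosome 3, 37639947 to 37644598, plus strand) stood at 595 normalized counts and 0.02 ± 0.23 (SE), and Spry4 (chromosome 18, 38586247 to 38601415, minus strand) at 467 normalized counts and 0.06 ± 0.22 (SE), in the authors' deposited table. Their values correspond to 102 and 104 percent of control, and the interval of each spans about the same range, 74.1 to 140 percent for Spry1 and 77.6 to 139 percent for Spry4.

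Spred1, which holds Ras in check together with neurofibromin (chromosome 2, 117121374 to 117182279, plus strand), gave the tightest value. Its mean level was 2268 normalized counts and its log2 fold change -0.11 ± 0.15 (SE, DESeq2 adjusted p = 0.931) in the authors' deposited table. This is 92.7 percent of control, with an interval of 75.3 to 114 percent.

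Etv4 and Etv5, transcription factors of the PEA3 group that carry the ERK signal to further genes, had negative values that were smaller than their SE. Etv4 (chromosome 11, 101769742 to 101785371, minus strand) had 460 normalized counts and a log2 change of -0.10 (SE 0.27, DESeq2 adjusted p = 0.969) in the authors' deposited table. Etv5 (chromosome 16, 22381309 to 22439719, minus strand) had 556 normalized counts and -0.31 ± 0.33 (SE, DESeq2 adjusted p = 0.886) in the authors' deposited table. Etv5 has the widest interval of the 9, from 51.4 to 127 percent of control, and a fall to 44.9 percent or a 2.23-fold rise would have been needed to pass.

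**Figure D2:**
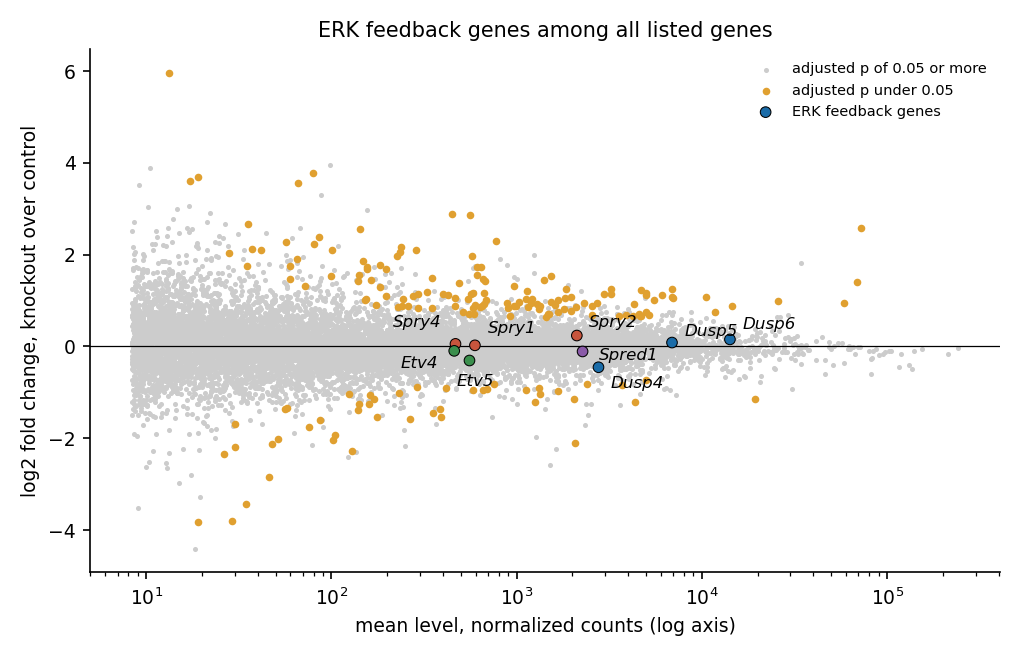
Log2 fold change (y axis, knockout over control) against mean level (x axis, normalized counts on a log axis) for all 16701 genes of the authors' deposited table. Orange points have an adjusted p under 0.05, and the 9 named points are the ERK feedback genes, which lie between -0.45 and 0.24 within the grey band.

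The 9 genes are spread over 9 chromosomes, and 0 of them lie on chromosome 13, which carries Ocln. In GENCODE M21, gene models on the opposite strand overlap Dusp5 (AC137853.2), Spry1 (Gm42922) and Spry4 (Gm27369 and Gm27804). No label gives the strandedness of the libraries, so reads of these partners cannot be told apart from those of the 3 genes.

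Their levels covered a wide range. Per kilobase of exon, Dusp6 was highest at 5063 normalized counts, followed by Dusp5 at 2787. Spry2 at 1012 and Dusp4 at 1009 were next and close to each other, and Spred1 stood at 334. Spry1 (205), Etv4 (192), Etv5 (138) and Spry4 (98.3) closed the order on the same scale, Dusp6 being 51.5 times as high as Spry4. These are means over both genotypes with no spread between libraries, so it is not shown which neighbours in the order differ.

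The 9 genes were measured less precisely than most genes of similar level. The SE of the log2 fold change was above the median of genes in the same of 20 bins of mean level for 8 of the 9, the exception being Spred1 at 0.91 times that median. The ratio was 1.72 for Etv5, 1.47 for Dusp5, 1.46 for Spry2, 1.36 for Etv4, 1.25 for Dusp4, 1.22 for Dusp6, 1.20 for Spry1 and 1.08 for Spry4. In its bin, the SE of Etv5 was at percentile 96.6 and that of Spred1 at percentile 24.3. Whether the wider errors come from 1 library or from all of them cannot be seen without values per library.

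**Figure D3:**
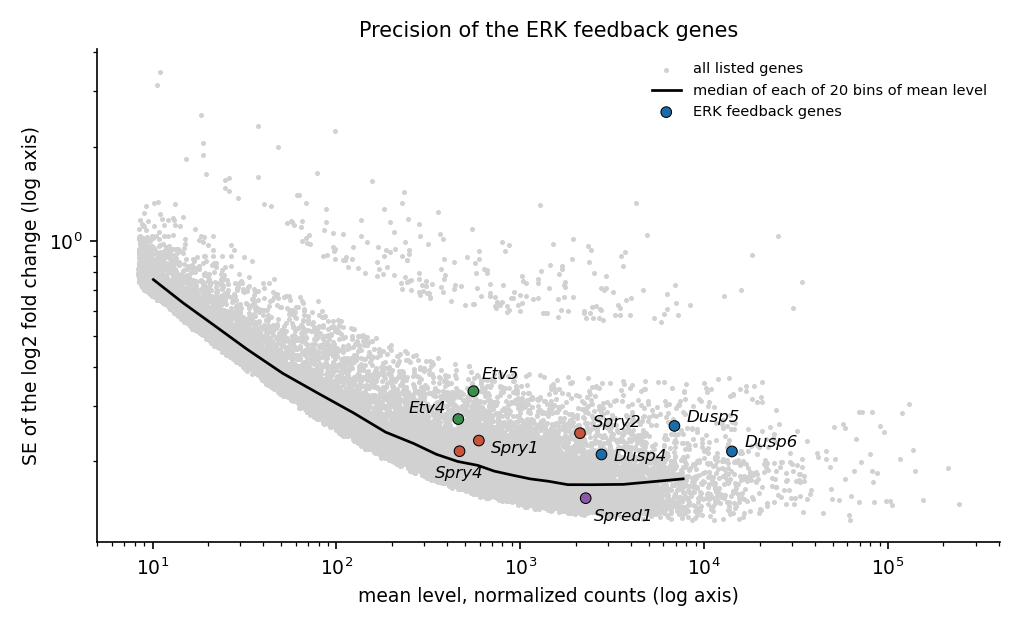
SE of the log2 fold change (y axis, log axis) against mean level (x axis, normalized counts, log axis) for all listed genes of the authors' deposited table. The black line joins the medians of 20 bins of mean level, and 8 of the 9 ERK feedback genes lie above it, Etv5 by 1.72 times.

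Further relatives were taken from a list that does not cover the whole Dusp and Etv families. Of the 13 listed genes among its 15, 0 passed (1.08 percent of all genes), while unadjusted p-values under 0.05 (9.07 percent of all genes) went with 2 higher genes and 1 lower gene. A count of 0 among 13 is near the background. The higher ones were Etv6, an ETS repressor (0.74 ± 0.23 SE, DESeq2 adjusted p = 0.0933), and Dusp8, a phosphatase of stress-activated kinases (0.53 ± 0.19 SE, adjusted p = 0.189), in the authors' deposited table. The lower one was Dusp1, an immediate early phosphatase of several MAP kinases, at -0.48 ± 0.24 (SE, DESeq2 adjusted p = 0.54) in the authors' deposited table. The median of the 13 was 0.09.

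Growth factor receptors, at the head of the pathway, did include genes that rose. Of 11 listed receptor genes 2 passed, both upward, where 0.808 percent of all genes passed upward: Egfr, the EGF receptor gene (0.93 ± 0.21 SE, DESeq2 adjusted p = 0.00168, 1.91-fold), and Igf1r, the gene of the receptor for insulin-like growth factors (0.76 ± 0.16 SE, adjusted p = 0.000925, 1.69-fold), in the authors' deposited table. Both are Stable in the authors' own calls, and neither is called when the absolute log2 fold change must also reach 1. Met, the receptor gene for hepatocyte growth factor, stood at 0.71 ± 0.24 (SE, DESeq2 adjusted p = 0.157) and Kit, the stem cell factor receptor gene, at 0.36 ± 0.20 (SE, adjusted p = 0.617) in the authors' deposited table, and neither passed. The FGF receptor genes Fgfr1 (-0.47 ± 0.23 SE, DESeq2 adjusted p = 0.511) and Fgfr2 (-0.56 ± 0.32 SE, adjusted p = 0.647) had negative values in the authors' deposited table, without a call. Unadjusted p-values under 0.05 went with 3 higher receptor genes and 1 lower one, where 9.07 percent of all genes stand, and the median of the 11 was 0.03.

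The lists of ligand genes and of cascade genes had no called member. Of 13 listed EGF, FGF and HGF family ligand genes 0 passed, where 1.08 percent of all genes did, while unadjusted p-values under 0.05 (9.07 percent of all genes) went with 1 higher gene and 1 lower gene. These were Hbegf, a ligand of the EGF receptor (0.45 ± 0.22 SE, DESeq2 adjusted p = 0.506), and Fgf1 (-0.68 ± 0.27 SE, adjusted p = 0.300) in the authors' deposited table. Areg, the amphiregulin gene and the ligand with the highest mean level, had a value of 0.13 ± 0.63 (SE, DESeq2 adjusted p = 0.836) in the authors' deposited table, too imprecise to give a direction. Of 22 genes of the cascade, 0 had an adjusted or unadjusted p under 0.05, with values from -0.24 to 0.44 and a median of 0.04. Counts of 0 called among 13 and among 22 genes are near the background share. The adaptor gene Gab1 had the highest mean level of this list and stood at 0.44 ± 0.25 (SE) in the authors' deposited table. The cascade list does not hold every regulator of Ras. It includes Rasa1 and Nf1, which did not pass. It leaves out Rasal2 (0.86 ± 0.17 SE), Rasa2 (0.72 ± 0.19 SE) and Rasal1 (1.16 ± 0.33 SE). These passed upward, with DESeq2 adjusted p of 0.000281, 0.0264 and 0.0432, where 0.808 percent of all genes did.

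Other genes linked to ERK output were mixed. This list of 15 holds mostly genes that ERK is known to induce, and also the regulators Cic and Lrig1. Of the 15, 2 passed, both upward, where 0.808 percent of all genes did: Epha4, an ephrin receptor gene (1.56 ± 0.36 SE, DESeq2 adjusted p = 0.00317, 2.94-fold), and Egr3, an immediate early transcription factor gene (1.26 ± 0.31 SE, adjusted p = 0.00881, 2.39-fold), in the authors' deposited table. Unadjusted p-values under 0.05 (9.07 percent of all genes) went with 5 higher genes, these 2 included, and 1 lower gene. Epha2, a further ephrin receptor gene, stood at 0.69 ± 0.22 (SE, DESeq2 adjusted p = 0.112) in the authors' deposited table. Fosl1 (0.46 ± 0.21 SE) and Ier3 (0.43 ± 0.20 SE) had positive values and Fos (-0.49 ± 0.22 SE) a negative one, with DESeq2 adjusted p of 0.468, 0.472 and 0.433 in the authors' deposited table. Egr1, an immediate early gene, had a value of -0.10 ± 0.21 (SE, DESeq2 adjusted p = 0.958) in the authors' deposited table. Immediate early genes can also be induced while tissue is taken apart into cells, and no label says how these cells were isolated. The list had a median of 0.05.

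**Figure D4:**
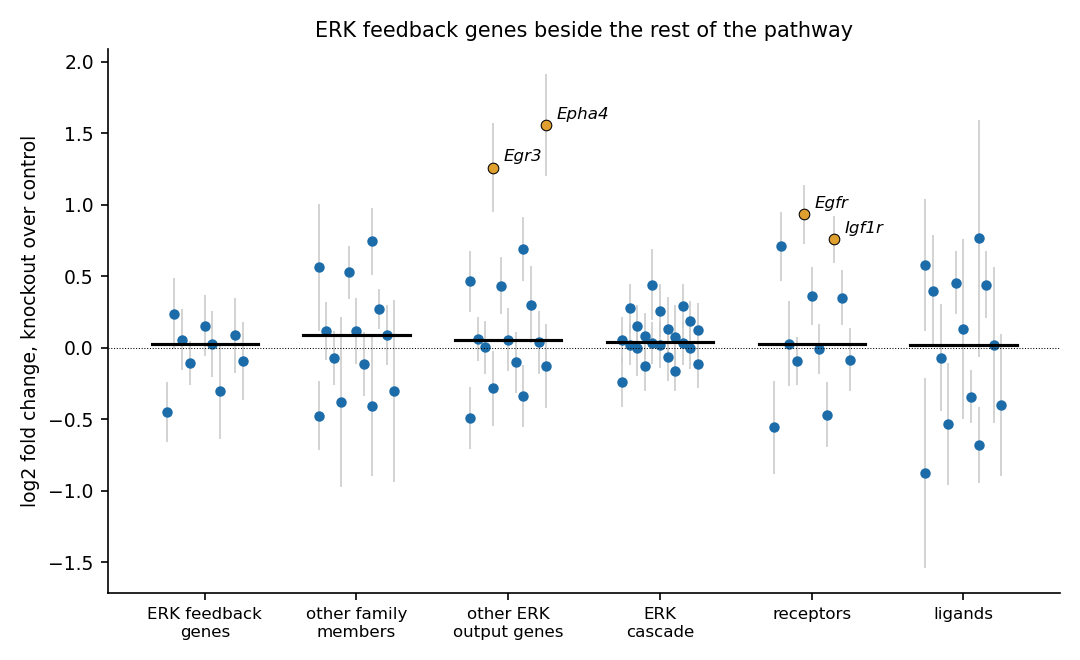
Log2 fold changes (y axis, knockout over control) of the 9 ERK feedback genes and of the 5 other gene lists of the pathway, from the authors' deposited table. Each point is a gene with its SE as a grey bar, black lines are list medians, and orange points have an adjusted p under 0.05: 2 among the receptors, 2 among the other ERK output genes and 0 among the feedback genes.

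These calls and the absence of calls among the 9 feedback genes stand side by side without a test of the difference between them. Over the 74 listed pathway genes other than the 9, 4 were called higher and 0 lower, beside 0.808 percent higher and 0.275 percent lower over all genes. By sign alone, 45 were positive and 29 negative, beside 48.8 percent positive over all genes. Genes outside the lists are not in these counts, among them Rasal2, called higher, and the receptor gene Ntrk2, called lower (-1.69 ± 0.46 SE, DESeq2 adjusted p = 0.0270). Of the 74, 15 had an unadjusted p under 0.05, 11 of them higher, beside 9.07 percent of all genes and 5.23 percent higher. The lists were chosen with earlier results of these data known, so these shares are a description only.

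Several marker lists had values of 1 sign in the same comparison. Over all genes, 1.08 percent were called and 9.07 percent had an unadjusted p under 0.05. All 5 luminal progenitor markers were positive (median 0.51, 1 called, Ltf, and 3 at an unadjusted p under 0.05, Ltf included). All 5 hormone-sensing markers were negative (median -0.54, 0 called, 0 at an unadjusted p under 0.05). All 5 markers of dividing cells were negative (median -1.09, 0 called, 1 at an unadjusted p under 0.05). The 6 macrophage markers had a median of 0.26, with 0 called by DESeq2 and 0 at an unadjusted p under 0.05. The 3 listed B cell markers were all positive (median 1.54, SE from 1.01 to 1.60), as were the 2 of T and NK cells (median 0.40), with 0 of these 5 called and 0 at an unadjusted p under 0.05. Of the 6 basal and 6 fibroblast markers 1 each was called, both lower, Oxtr and Dcn. The fibroblast list had 5 positive values and 1 negative, with a median of 0.22. The basal list had 1 positive value and 5 negative, with a median of -0.17. In bulk RNA, fewer cells of a type and less RNA per cell cannot be told apart, and the part of these shifts in the values of the 9 genes was not tested.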

How the data were processed

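The data were the authors' deposited values for 1 contrast, knockout against control, of 3 control and 3 knockout libraries of polyadenylated RNA. DESeq2 (no version) and the build mm10 are named in the submitters' processing notes. The aligner, the counter and the model are not given in the sources. Per the file headers, the authors give for each gene a mean level (a signal in normalized counts), a log2 fold change with its SE in log2 units, a Wald score, a p-value and an adjusted p-value, and another kind of value, their call of Up, Down or Stable. Recomputing the Benjamini-Hochberg adjustment over all rows moved the deposited adjusted p-values by 0.51 percent or less.

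The fixed design planned a count model if counts per library were given. With this table alone, the deposited values were described with no new test per gene. The threshold for a call was an adjusted p of 0.05, adjusted over all genes. Intervals are 95 percent normal intervals from the SE. Levels per kilobase divide the mean level by the summed exon length in the GENCODE M21 basic set on GRCm38. Promoters came from RefSeq on GRCm38.p6, and transcription starts can differ between the annotations. The re-adjustment was tested on simulated data, with python 3.11.15, numpy 2.4.6, pandas 2.3.3 and scipy 1.17.1.

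The 9 genes and the gene lists were chosen with earlier results of these data known. Named by rule were all 9 genes, Ocln, list genes with an adjusted p under 0.05, up to 4 more per list with the lowest unadjusted p under 0.05, the 2 of each list with the highest mean level, and the 2 of each marker list with the highest mean level. Other genes named, among them further markers, were chosen after their values were seen. Alternatives were other thresholds, a mean level of at least 50, the authors' calls, scores scaled down for their inflation, and centred fold changes. Some genes taken by the naming rule are not reported here.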

Additional observations from a re-analysis of the deposited data

How the results depend on the processing

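The count of 0 called genes among the 9 was also 0 at an adjusted p under 0.01, when the absolute log2 fold change also had to reach 1, with levels under 50 left out, by the authors' own calls, and with scores scaled down by 1.09 for their inflation. It was 1, Dusp4, at an unadjusted p under 0.05. The adjusted p of Dusp4 was 0.452 with the level filter and 0.723 after the scaling. With the median of all genes, or of genes of similar level, taken off, 9 of 9 log2 fold changes kept their sign, and Dusp4 was at -0.45 and -0.47. Egfr and Igf1r, which rose, are not called by the authors' rule or where the fold requirement is added. Over all genes, the 181 calls became 107 at an adjusted p under 0.01, 117 with the fold requirement, 119 after the scaling, 466 by the authors' own rule and 1514 at an unadjusted p under 0.05. No paired analysis was possible because the table gives no values per library, and leaving out replicates, a replicate block and another normalization were not run for that reason.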

Other observations

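Among the 15 genes linked to ERK output that the report counts are 4 known regulators of the pathway. They were named here after their values were seen. Of the 4, 0 were called by DESeq2 (1.08 percent of all genes) and 0 had an unadjusted p under 0.05 (9.07 percent). Counts of 0 among 4 genes are near these shares. Errfi1, an inhibitor of the EGF receptor, stood at 0.04 ± 0.22 (SE), Lrig1, which restrains EGF receptor family members, at -0.34 ± 0.22 (SE), and Il17rd, an inhibitor of FGF signalling, at -0.28 ± 0.26 (SE) in the authors' deposited table. Cic, the repressor that ERK signalling inactivates, stood at 0.06 ± 0.16 (SE) in the authors' deposited table, which measures its RNA and not its activity.

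Of the relatives of the 9 genes, Etv1 (-0.31 ± 0.63 SE) and Dusp10 (-0.38 ± 0.59 SE) carried far wider errors than Etv4 or Dusp4 in the authors' deposited table. Their SE was 3.27 and 3.44 times the median of genes of similar level, so no direction can be read for either. Both were chosen after their values were seen.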
